A study of Mus musculus with 8 samples.

Results

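Interferon-stimulated genes were examined in distal lung cells of mice that breathed room air or side-stream cigarette smoke (CS). The genes were chosen by symbol, 40 of the 22756 genes in the deposited counts, and all 40 were found. They form a type I list of 32 genes, made of 22 antiviral effectors, 3 cytosolic RNA sensors and 7 genes of signalling, transcription and feedback, and a list of 8 interferon gamma-induced GTPases.

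The mice were adult, on a background that was mostly C57BL/6. The control genotype, α7G, carries a Chrna7 allele followed by an internal ribosome entry site and a tau-GFP reporter, so that cells using the nicotinic acetylcholine receptor α7 subunit are marked. The other genotype, α7E260A:G, carries the same reporter behind a Chrna7 allele with the E260A substitution. CS was given on 5 days of the week for 4 months, and cells were taken after depletion of CD45+ leukocytes. Each of the 4 groups (α7G control, α7G CS, α7E260A:G control and α7E260A:G CS) has 2 libraries, 1 from males and 1 from females, and the number of mice behind a library is not given in the sources used here. The p-values below measure the spread between such libraries, in which sex is part of the spread. In what follows, paired values give the male library first and the female library second.

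Interferons are secreted proteins that tell cells of a viral or bacterial threat. Type I interferons bind the IFNAR receptor, whose kinases phosphorylate STAT2, and complexes of STAT2 with IRF9 bind interferon-stimulated response elements (ISRE) in promoters. Interferon gamma, made mainly by T and NK cells, acts through gamma-activated sites (GAS), and the guanylate-binding proteins and immunity-related GTPases are among its best-known targets in macrophages and epithelium of the lung. Many genes of either list respond to both kinds of interferon.

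Promoter sequences of 5 members are shown because the lists differ in the interferon they are known for and the elements can be read in the letters. The stretches run from base -160 to base -1 before the RefSeq transcript start in build GRCm38.p6, 5′ to 3′ on the strand of the gene, and capitals mark the ISRE core (GAAANNGAAA, searched on both strands) or GAS (TTCNNNGAA, which reads alike on both strands).
Isg15 (chr4:156200819-156200978, minus strand): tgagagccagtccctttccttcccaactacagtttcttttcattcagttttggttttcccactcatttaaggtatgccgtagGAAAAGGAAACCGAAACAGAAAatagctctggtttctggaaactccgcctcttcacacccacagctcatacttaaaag
Ifit1 (chr19:34640729-34640888, plus strand): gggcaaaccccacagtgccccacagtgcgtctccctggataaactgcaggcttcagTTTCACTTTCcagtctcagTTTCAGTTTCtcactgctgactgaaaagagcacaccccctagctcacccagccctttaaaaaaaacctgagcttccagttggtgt
Ifit3 (chr19:34583369-34583528, plus strand): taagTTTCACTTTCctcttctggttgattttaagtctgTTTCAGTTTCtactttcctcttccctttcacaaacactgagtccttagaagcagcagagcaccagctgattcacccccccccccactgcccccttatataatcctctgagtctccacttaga
Gbp2 (chr3:142620503-142620662, plus strand): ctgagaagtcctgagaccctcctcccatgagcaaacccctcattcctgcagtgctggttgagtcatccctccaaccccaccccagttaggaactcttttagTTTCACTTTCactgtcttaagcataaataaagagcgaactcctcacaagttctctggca
Igtp (chr11:58199396-58199555, plus strand): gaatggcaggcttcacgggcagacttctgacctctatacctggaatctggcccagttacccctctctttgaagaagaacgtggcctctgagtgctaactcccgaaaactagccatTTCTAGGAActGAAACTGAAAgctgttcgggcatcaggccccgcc
The 3 ISRE cores of Isg15 overlap each other in a single run, those of Ifit1 and Ifit3 stand apart, Gbp2 has 1, and Igtp has a GAS followed by an ISRE core.

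Of the 40 members, 31 had a promoter in the RefSeq table, taken as 250 bases before to 50 bases after the start. An ISRE core was present in 17 of the 31 (54.8%), against 3.99% of the 27025 genes in the table, and a GAS in 10 (32.3%), against 9.55%. Among the GTPases 6 of the 7 matched promoters (85.7%) held an ISRE core and 3 (42.9%) held both motifs. In Igtp, Irgm2 and Tgtp1 the GAS began 11 bases before the ISRE core. Bst2 also held both, with the GAS at base -136 overlapping an ISRE core at base -130. Of the type I list 11 of 24 matched promoters (45.8%) held an ISRE core. Ifi47, Irf7, Irf9, Oasl1, Oasl2, Ifi44, Sp100, Xaf1, Trim25 and Cmpk2 held neither motif in this window.

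In the genome the members lie in clusters. Of the 40, 9 were on chromosome 11, among them Igtp (mm9 chr11:58013058-58021093), Irgm1, Irgm2, Tgtp1 and Ifi47. Gbp2 (chr3:142283566-142300972) and Gbp3 (chr3:142223016-142236173) are neighbours on chromosome 3, the 5 Oas and Oasl genes are on chromosome 5, and Ifit1 (chr19:34715361-34724499), Ifit2 and Ifit3 (chr19:34658021-34663221) are on chromosome 19. The reads were counted over coding sequence (CDS). Some members share coding sequence with near-identical copies, so their counts are less certain. The share of 50-base stretches also found in another gene was 87.0% for Tgtp1 (Tgtp2), 68.4% for Ifit3 (I830012O16Rik) and 47.6% for Oas1a (Oas1g).

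The libraries held 8020726 to 10944100 counts, so that 3 counts equal 0.274 to 0.374 RPM (reads scaled to the library total). Of the 40 members, 24 had a mean count of 200 or more and all 40 passed the filter for testing, a mean count of 10. The sorted cells were not free of leukocyte RNA: Ptprc, Coro1a, Laptm5 and Cd53, 4 of 4 leukocyte markers, summed to 4020 to 5405 RPM, while 5 epithelial markers summed to 1002 to 1886 RPM. The 3 club cell markers summed to 43860 to 67590 RPM in α7G and 14390 to 46230 RPM in α7E260A:G. The sums of 3 other lists did not overlap between the genotypes. The 10 alveolar macrophage markers summed to 11720 to 18320 RPM in α7G and 27000 to 41820 RPM in α7E260A:G, the 7 AT2 cell markers to 19440 to 29890 and 4447 to 14330 RPM, and the 4 B cell markers to 1072 to 1860 and 579 to 757 RPM. By edgeR 0 of the 10, 0 of the 7 and 0 of the 4 passed an adjusted p of 0.05 for genotype. Their part in the values below was not tested, and in such bulk samples fewer cells of a type and less RNA per cell cannot be told apart.

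Per kilobase of coding sequence (RPKM, mean of the 8 libraries), the members spanned 2.16 to 250.0. Samhd1, a dNTP hydrolase that limits retroviruses, was highest at 250.0 RPKM, followed by Bst2 (tetherin) at 179, Ifi35 at 137, Ifi47 at 103 and Sp100 at 89.4. Several inducible effectors were low, with Ifit1 at 11.7, Ifit3 at 7.16, Rsad2 (viperin) at 5.75, Oas2 at 3.47, Mx1 at 2.98 and Mx2 at 2.16 RPKM. Other effectors were higher, among them Isg15 at 50.2, Isg20 at 49.3, Rtp4 at 40.7 and Zbp1 at 35.9 RPKM. The levels of most members varied little between libraries. The highest over the lowest RPM of a member had a median of 1.88 and ran from 1.35 for Irgm1 to 25.1 for Oas2; it was under 2 for 23 members and over 3 for 10. The lowest library of a member was a CS library for 32 of 40 members and the highest a CS library for 8. The male α7E260A:G CS library was the lowest for 15 members and the male α7E260A:G control library the highest for 13. These counts are in RPM, without TMM scaling of library totals, and were not made over all genes. In RPM the median log2 ratio of CS to control over all genes was -0.15 and -0.09 in α7G, and -0.002 and 0.15 in α7E260A:G. The members share the same 8 libraries.

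**Figure D1:**
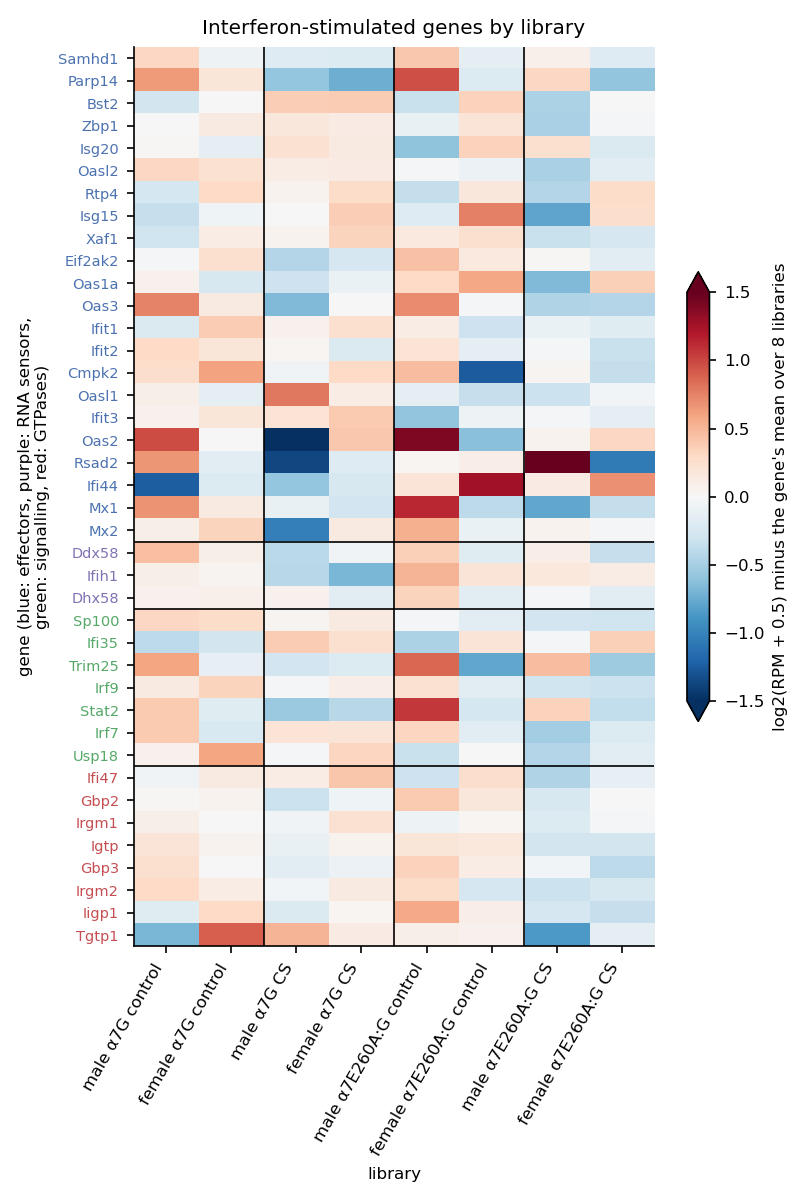
Each row is a member, grouped by role and ordered by level, and each column a library; colour gives log2(RPM + 0.5) minus the gene's mean over the 8 libraries, with values past 1.5 at the end of the scale. The columns of α7E260A:G CS are blue for most GTPases, and Oas2 and Rsad2 show single libraries far from the rest.

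The antiviral effectors did not share a single pattern with CS. Isg15, a ubiquitin-like protein that is joined to other proteins, had 18 and 22.1 RPM in α7G control, 23.3 and 30.1 in α7G CS, 20.2 and 39.3 in α7E260A:G control, and 13.2 and 27.9 in α7E260A:G CS. It was higher with CS in α7G and lower with CS in α7E260A:G within each sex, and the female library exceeded the male in each group. The fitted log2 change with CS was 0.55 (SE 0.54) in α7G and -0.62 (SE 0.53) in α7E260A:G, and the difference between them, -1.17 (SE 0.76), had an adjusted p of 1 by edgeR's quasi-likelihood test. Bst2, which holds budding virions at the cell surface, had 74.7 and 90.0 RPM in α7G control, 116 and 118 in α7G CS, 71.6 and 115 in α7E260A:G control, and 64.7 and 89.7 in α7E260A:G CS. Its CS libraries lay above its control libraries in α7G, with no overlap, and its α7E260A:G libraries overlapped. The log2 change was 0.64 (SE 0.38) in α7G and -0.37 (SE 0.38) in α7E260A:G, with a difference of -1.01 (SE 0.54; unadjusted p 0.101 in edgeR, adjusted p 1).

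Ifit1 encodes a protein that binds viral RNA. Ifit1 had 13.7 and 21.1 RPM in α7G control, 16.9 and 19.1 in α7G CS, 17.4 and 12.9 in α7E260A:G control, and 15 and 14.2 in α7E260A:G CS, and within each genotype its CS and control libraries overlapped. Ifit3 had 8.90 and 9.71 RPM in α7G control, 9.89 and 11.3 in α7G CS, 5.48 and 8.04 in α7E260A:G control, and 8.35 and 7.63 in α7E260A:G CS, so that the 4 α7E260A:G libraries lay below the 4 α7G libraries, by -0.33 on the log2 scale (SE 0.27; adjusted p 0.748, edgeR), and by -0.14 without the male and -0.59 without the female α7E260A:G control library. Oasl2, an oligoadenylate synthetase-like protein, gave 42.7 and 40.2 RPM in α7G control, 37.2 and 37.5 in α7G CS, 33.6 and 32.3 in α7E260A:G control, and 24.4 and 30.5 in α7E260A:G CS. Its α7E260A:G libraries were also all below those of α7G, with a log2 difference of -0.29 (SE 0.19; adjusted p 0.647, edgeR), or -0.17 without the male α7E260A:G CS library. Ifi44, a cytoplasmic protein induced by type I interferon, was the member with the largest genotype difference. It had 2.41 and 5.44 RPM in α7G control, 4.07 and 5.30 in α7G CS, 7.31 and 15.9 in α7E260A:G control, and 6.98 and 10.5 in α7E260A:G CS, which is a 2.55-fold higher fitted level in α7E260A:G (log2 1.35, SE 0.44; adjusted p 0.278, edgeR). Without the female α7E260A:G control library the log2 difference was 0.90. The ratio of α7E260A:G to α7G was 3.04 for male and 2.92 for female controls, and 1.71 and 1.98 for the CS libraries.

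Zbp1, a sensor of Z-form nucleic acid, had 47.3 and 52.2 RPM in α7G control, 53.5 and 51.7 in α7G CS, 43.9 and 54.3 in α7E260A:G control, and 33.7 and 46.4 in α7E260A:G CS, and only the male α7E260A:G CS library was below 40 RPM. Parp14 and Oas3 have the longest coding sequences among the effectors. Parp14, a mono-ADP-ribosyltransferase, had 155 and 113 RPM in α7G control, 66.3 and 59.6 in α7G CS, 195 and 86 in α7E260A:G control, and 124 and 65.6 in α7E260A:G CS. Oas3, which makes the oligoadenylates that activate RNase L, had 28.3 and 18.5 RPM in α7G control, 10.4 and 16.6 in α7G CS, 27.5 and 16.5 in α7E260A:G control, and 12.1 and 12.2 in α7E260A:G CS. Mx1, a dynamin-like GTPase, had 8.42 and 5.66 RPM in α7G control, 4.66 and 4.06 in α7G CS, 11.7 and 3.75 in α7E260A:G control, and 2.74 and 3.87 in α7E260A:G CS. All 3 had lower means with CS in both genotypes. Over both genotypes the log2 change with CS was -0.78 (SE 0.25) for Parp14, -0.77 (SE 0.25) for Oas3 and -0.86 (SE 0.38) for Mx1, and the adjusted p was 0.641, 0.641 and 0.645 in edgeR. Without the male α7E260A:G control library that of Mx1 was -0.47.

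The other 12 effectors are given by range. Samhd1 ran from 442 to 675 RPM, Isg20 from 28.5 to 55.4, Rtp4 from 21.9 to 36.7, Xaf1 from 18.8 to 30.2, Eif2ak2 (PKR) from 15.4 to 28.7 and Oas1a from 12.0 to 29.0. Rtp4 was higher in all 4 female than in all 4 male libraries. Ifit2 ran from 11.7 to 18.4 RPM, Cmpk2 from 4.20 to 16.4, Oasl1 from 6.76 to 15.4 and Mx2 from 1.75 to 6.09. Each of Oas2 and Rsad2 turned on a single library. Oas2 had 6 counts (0.698 RPM) in the male α7G CS library and 43 to 144 counts in the others. Rsad2 had 191 counts (23.8 RPM) in the male α7E260A:G CS library and 16 to 76 in the others.

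The RNA sensors are RIG-I (Ddx58), MDA5 (Ifih1) and LGP2 (Dhx58), which read viral RNA in the cytosol and lead to interferon production. Ddx58 had 100.3 and 77.7 RPM in α7G control, 55.2 and 70.5 in α7G CS, 94.4 and 64.3 in α7E260A:G control, and 78.4 and 57.6 in α7E260A:G CS. Ifih1 had 48.4 and 46.8 RPM in α7G control, 33.8 and 28.1 in α7G CS, 64.7 and 51.7 in α7E260A:G control, and 50.6 and 49 in α7E260A:G CS. The Ifih1 libraries of α7E260A:G were all above those of α7G, 1.48-fold by the fit (log2 0.57, SE 0.16), the smallest p of any member in the genotype comparison (unadjusted p 0.00671, adjusted p 0.201, edgeR). With CS it had a log2 change of -0.48 (SE 0.22; adjusted p 0.639) in α7G and -0.28 (SE 0.22; adjusted p 1) in α7E260A:G. Dhx58 ran from 25.2 to 35.8 RPM.

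Among the genes of signalling, Irf7 (the factor that amplifies interferon transcription) had 63 and 41 RPM in α7G control, 55.3 and 54.9 in α7G CS, 60.1 and 42.9 in α7E260A:G control, and 33.3 and 41.6 in α7E260A:G CS, and Stat2 had 61.5 and 41.3 RPM in α7G control, 31.8 and 34.9 in α7G CS, 98.1 and 38.8 in α7E260A:G control, and 59.6 and 36.1 in α7E260A:G CS. Stat2 was high in the male α7E260A:G control library and the other 7 were at 61.5 RPM or less. Usp18, which removes ISG15 and dampens the type I receptor, had 39 and 56.3 RPM in α7G control, 36.7 and 46.8 in α7G CS, 29.5 and 37.2 in α7E260A:G control, and 27.4 and 33 in α7E260A:G CS. Its female library was above its male library in each group. Ifi35, a regulator of innate signalling, had 87.4 and 94.8 RPM in α7G control, 150.4 and 136 in α7G CS, 82.9 and 131 in α7E260A:G control, and 113 and 147 in α7E260A:G CS, and its α7G CS libraries lay above its α7G control libraries. Its log2 change with CS was 0.79 (SE 0.37; adjusted p 0.639, edgeR) in α7G and 0.19 (SE 0.36; adjusted p 1) in α7E260A:G. Sp100, a component of PML nuclear bodies, had 247 and 243 RPM in α7G control, 207 and 219.6 in α7G CS, 197 and 179.6 in α7E260A:G control, and 164 and 163 in α7E260A:G CS. All 4 α7E260A:G libraries of Sp100 were below all 4 of α7G (log2 -0.30, SE 0.16; adjusted p 0.559, edgeR), and within each genotype both CS libraries were below both controls. Irf9 ran from 49.6 to 78.2 RPM and Trim25, a ligase that activates RIG-I, from 36.0 to 114 RPM.

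The GTPases lay between 4.46 (Tgtp1) and 103 RPKM (Ifi47). Guanylate-binding proteins coat vacuoles that hold pathogens, and Gbp2 had 74.7 and 76.5 RPM in α7G control, 58.8 and 70.5 in α7G CS, 97 and 82.9 in α7E260A:G control, and 62.5 and 74 in α7E260A:G CS. Gbp3 had 42.1 and 35.3 RPM in α7G control, 31.9 and 33.5 in α7G CS, 45.3 and 38.4 in α7E260A:G control, and 34.5 and 26.9 in α7E260A:G CS. Immunity-related GTPases act at the same membranes, and Igtp (Irgm3) had 61.1 and 55.6 RPM in α7G control, 49.6 and 55.5 in α7G CS, 60.9 and 59.9 in α7E260A:G control, and 44.1 and 44.2 in α7E260A:G CS. For all 3 the CS libraries lay below the control libraries in RPM without overlap, over both genotypes together, but by narrow gaps. The nearest CS and control libraries were at 74 and 74.7 RPM for Gbp2, 34.5 and 35.3 for Gbp3, and 55.5 and 55.6 for Igtp. RPM carries no TMM scaling. With that scaling of library totals and an offset for coding length (described below), all 3 overlapped. The fitted log2 change with CS was -0.27 (SE 0.18) for Gbp2, -0.31 (SE 0.16) for Gbp3 and -0.27 (SE 0.16) for Igtp, and the adjusted p was 0.698, 0.658 and 0.68 (edgeR). That of Gbp2 was -0.16 without the male and -0.42 without the female α7E260A:G CS library.

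Irgm1, which regulates the other immunity-related GTPases, had 77.1 and 72.6 RPM in α7G control, 69.8 and 84.6 in α7G CS, 68.7 and 73.8 in α7E260A:G control, and 62.6 and 71.7 in α7E260A:G CS, and Iigp1 (Irga6) had 11.1 and 15.7 RPM in α7G control, 10.8 and 13 in α7G CS, 19 and 13.6 in α7E260A:G control, and 10.6 and 9.85 in α7E260A:G CS. The CS and control libraries of Irgm1 overlapped within each genotype, and Iigp1 was lower in both α7E260A:G CS libraries than in any other library. The log2 change of Iigp1 with CS was -0.04 (SE 0.31) in α7G and -0.72 (SE 0.32; unadjusted p 0.0521, adjusted p 1, edgeR) in α7E260A:G. Ifi47 ran from 92.8 to 169 RPM, Irgm2 from 17.7 to 27.5 and Tgtp1 from 2.62 to 10.03.

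**Figure D2:**
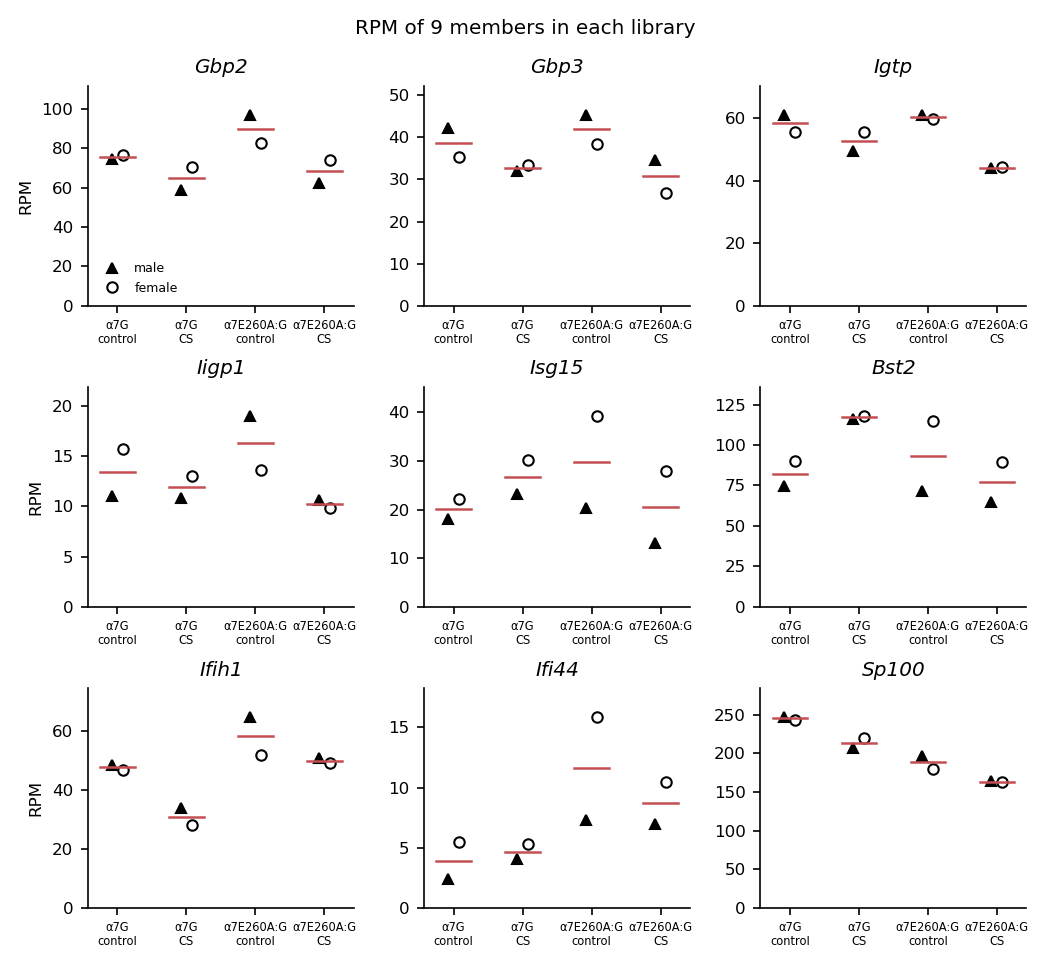
RPM of 9 members in each library, by group (triangles: male, open circles: female, red line: mean of the 2 libraries), on axes that start at 0. For Gbp2, Gbp3 and Igtp every CS library is below every control library, and for Ifih1 and Ifi44 every α7E260A:G library is above every α7G library. Except for Ifi44, the gaps are narrow.

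The first comparison asked whether the α7E260A:G genotype differed from α7G in the interferon-stimulated genes. None of the 40 members passed an adjusted p of 0.05 in edgeR, where 13 of 13637 genes (0.0953%) did. DESeq2 called none of the 40 either. At an unadjusted p under 0.05 there were 2 members (5.0%), against 11.4% of all genes. Of the 40, 19 had higher and 21 lower fitted levels in α7E260A:G, with a median log2 difference of -0.02, against 0.03 for all genes tested. The type I list had a median of 0.01 and the GTPases of -0.03. Members with no overlap between the genotypes in RPM were Ifi44 and Ifih1, higher in α7E260A:G (5.0% of members, 2.34% of all genes), and Ifit3, Oasl2 and Sp100, lower (7.5% of members, 5.54% of all genes). With an offset for coding length in the fit (described below), 485 genes (3.56%) and none of the members were called. In values with TMM scaling and the offset, neither of which RPM carries, Ifi44 alone stayed without overlap. In this way 775 genes (5.7%) were higher and 641 (4.72%) lower. Of the alternatives fitted to all 8 libraries, only 1 called a member. The edgeR fit with sex as a block and the length offset called Ifi44 (adjusted p 0.0287), 1 of 40 members, beside 711 of 13637 genes. With 1 library left out, the log2 difference of Ifi44 ran from 0.90 to 1.73. The summed macrophage, AT2 and B cell markers did not overlap between the genotypes, as given above, and their part in these differences was not tested.

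The second comparison took CS against control over both genotypes. No gene passed among the 13637 (0.0%), and 3 of the 40 members (7.5%) had an unadjusted p under 0.05 in edgeR, namely Parp14, Oas3 and Ifih1, against 7.64% of all genes. DESeq2 called 68 genes and no member. The fitted change was downward for 31 of the 40 members, with a median log2 change of -0.18, while the median of all genes was 0.01 and 49.2% of them were lower. By role the number lower was 15 of 22 effectors, 3 of 3 RNA sensors, 6 of 7 signalling genes and 7 of 8 GTPases, with medians of -0.08, -0.32, -0.17 and -0.26. The 3 GTPases without overlap in RPM (Gbp2, Gbp3 and Igtp) were 7.5% of the members, beside 0.931% of all genes that were lower in this way. No member was higher in all CS libraries, beside 1.84% of all genes. Without the male α7E260A:G CS library the GTPase median was -0.14, and without the female one the type I median was -0.29 in place of -0.15. With TMM scaling and the length offset together the members without overlap were different ones, Ifit2, Mx1 and Parp14, beside 2.14% of genes lower and 1.86% higher.

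Within the genotypes the values parted. In α7G, 23 of 40 members were lower with CS and the median log2 change was -0.03; the GTPases were 5 of 8 lower with a median of -0.02. In α7E260A:G, 35 of 40 were lower and the median was -0.36, while 52.6% of all genes were lower and their median was -0.02. All 8 GTPases were lower, with a median of -0.48, a fitted level of 0.715 of the control, and 27 of the 32 genes of the type I list, with a median of -0.29. The GTPase median rested in part on the male α7E260A:G CS library: it was -0.22 without it and -0.69 without the female one. No member passed in either genotype. In α7G no gene was called (0.0%) and 1 member, Parp14, had an unadjusted p under 0.05; in α7E260A:G 1 gene of 13637 (0.00733%) was called, and 2 members, Oas3 and Gbp3, had an unadjusted p under 0.05, all by edgeR. DESeq2 called no member in either. When the 4 libraries of α7G were fitted alone, 980 genes (7.19%) were called and with them Parp14 (adjusted p 0.0306) and Ifi35 (adjusted p 0.0388), 2 of 40 members, and the same fit of the α7E260A:G libraries called no gene.

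The difference between the genotypes in their response to CS was tested as an interaction. No gene passed (0.0%), in edgeR, and no member had an unadjusted p under 0.05, against 2.18% of all genes. DESeq2 called 11 genes and no member. The fitted difference was below 0 for 32 of 40 members and for 8 of 8 GTPases, with medians of -0.32 and -0.46, against 0.02 for all genes. Scaling by library size in place of TMM moved the median of all genes by 0.19, and the interaction medians of the type I list and the GTPases were then -0.07 and -0.25, with 26 of 40 members below 0. The same scaling moved the α7G medians of the lists to -0.19 and -0.16, with that of all genes at -0.14. Xaf1, an antagonist of the apoptosis inhibitor XIAP, had the smallest unadjusted p, 0.0534 (log2 difference -0.99, SE 0.43; adjusted p 1, edgeR).

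**Figure D3:**
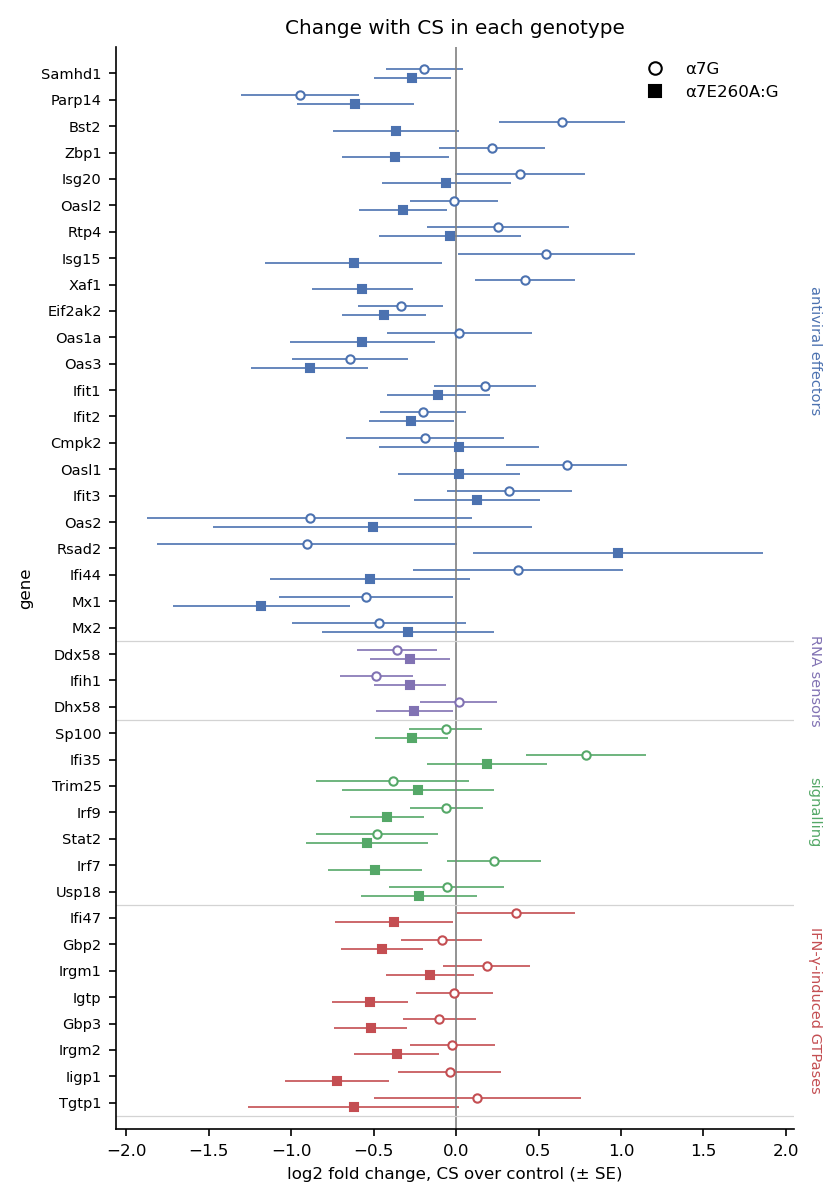
Log2 fold change of CS over control with its standard error for each of the 40 members, in α7G (open circles) and α7E260A:G (squares), coloured by role. All 8 GTPases lie left of 0 in α7E260A:G and near 0 or on either side of it in α7G.

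The male and the female pair of libraries can be read separately. In α7E260A:G the number of members with a lower RPM in the CS library was 36 of 40 in males and 30 of 40 in females, with median log2 ratios of -0.39 and -0.16, beside -0.002 and 0.15 for all genes. For the GTPases it was 8 and 7 of 8. In α7G it was 27 of 40 in both, with medians of -0.23 and -0.10, beside -0.15 and -0.09 for all genes. The list means of log2(RPM + 0.5) gave the same order for the GTPases, with 5.31 and 5.21 in α7E260A:G control, 4.80 and 4.94 in α7E260A:G CS, 5.12 and 5.33 in α7G control, and 5.10 and 5.24 in α7G CS. On this scale both α7E260A:G CS libraries were thus below the other 6. With TMM scaling and the length offset (described below) they were not. The female α7E260A:G CS library, at 4.993, was then above the male α7G control library, at 4.949. For the type I list the means of log2(RPM + 0.5) were 5.00 and 4.94 in α7G control, 4.64 and 4.87 in α7G CS, 5.09 and 4.82 in α7E260A:G control, and 4.76 and 4.71 in α7E260A:G CS, and here the male α7G CS library was the lowest. With TMM scaling and the length offset the male α7E260A:G CS library was the lowest, at 4.573, beside 4.585 for male α7G CS.

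**Figure D4:**
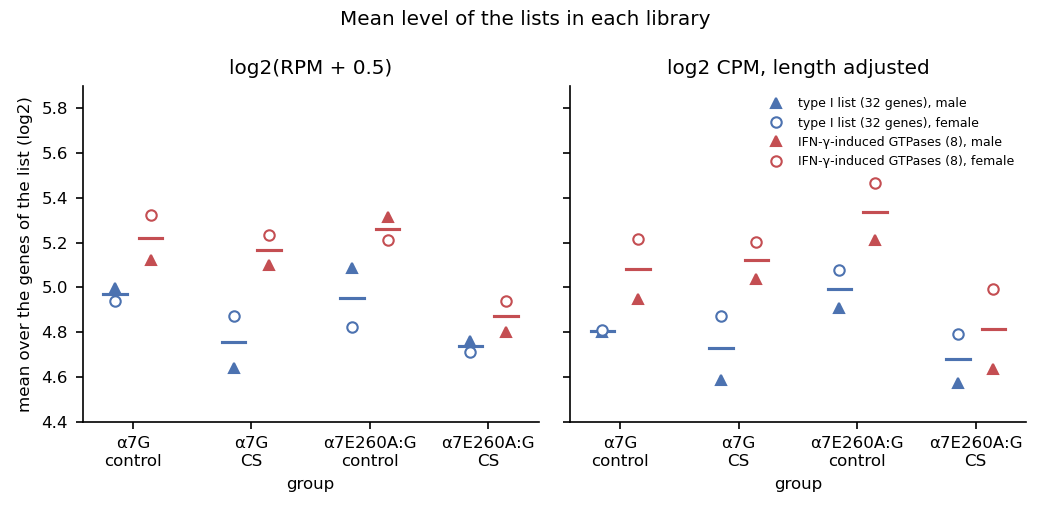
Mean over the genes of each list in every library (triangles: male, open circles: female, line: mean of the 2 libraries). The left shows log2(RPM + 0.5), and the right log2 counts scaled to the TMM-adjusted library total (CPM) with the length offset. The α7E260A:G CS libraries hold the lowest GTPase mean of their sex on both scales.

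Summed markers of 4 other cell types were lower in the CS library of each sex in α7E260A:G. The 8 T and NK cell markers summed to 919 and 2186 RPM in α7E260A:G control and 788 and 1211 RPM in α7E260A:G CS, and to 1051 and 1714 RPM in α7G control and 1440 and 1632 RPM in α7G CS. The 5 monocyte markers summed to 696 and 661 RPM in α7E260A:G control and 342 and 487 RPM in α7E260A:G CS, and to 577 and 390 RPM in α7G control and 521 and 516 RPM in α7G CS. The 4 neutrophil markers summed to 1005 and 3050 RPM in α7E260A:G control and 940.1 and 2191 RPM in α7E260A:G CS, and to 2422 and 845 RPM in α7G control and 1713 and 1895 RPM in α7G CS. The club cell markers summed to 24910 and 46230 RPM in α7E260A:G control and 14390 and 39330 RPM in α7E260A:G CS, and were higher with CS in both sexes of α7G. Single markers did not all follow their sums. In α7E260A:G, Scgb3a2 was higher with CS in both sexes (1014 to 1532 and 2317 to 3093 RPM), and so was Retnlg. Cd3d, Cd3g, Klrb1c and S100a8 were higher with CS in males only, and Ccr2, F13a1 and Cyp2f2 in females only. The other markers of these lists were lower in both sexes. The part of these sums in the GTPase values was not tested.

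The libraries also differed in how counts depended on coding length, and the members ranged from 483 bases (Isg15) to 5451 bases (Parp14). Across the 40 members, which share the same libraries, the log2 change with CS had a correlation of -0.751 with log2 coding length in α7G, beside -0.534 for all genes, and of -0.225 in α7E260A:G, beside -0.034. Short members such as Isg15, Bst2 and Ifi35 were on the upper side in α7G and long ones such as Parp14, Oas3 and Ifih1 on the lower. For the interaction the correlation was 0.472, beside 0.425 for all genes, so that shorter genes had the lower values. Xaf1, Isg15 and Bst2 are short, with 956, 483 and 516 bases. With a smooth offset for length in the fit, the correlation was -0.284 in α7G and 0.122 for the interaction. The interaction was then below 0 for 35 of 40 members, with a median of -0.37. The log2 change in α7G was then -0.26 for Parp14, -0.11 for Ifih1 and 0.51 for Ifi35, and over both genotypes it was -0.31 for Parp14 and -0.48 for Oas3. The offset changed the sign of 5 of 40 members for CS in α7G, 2 in α7E260A:G and 5 over both. The medians of both lists in α7E260A:G and over both genotypes kept their direction, and that of the GTPases in α7G was 0.004. By count, 37 of 40 members were lower with CS in α7E260A:G (median -0.37; GTPases 8 of 8, median -0.51), 22 of 40 in α7G (median -0.03) and 36 of 40 over both (median -0.20). In female α7G, 27 members were lower with CS in RPM but 13 with TMM scaling and the length adjustment together. RPM carries neither, and their parts were not separated.

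**Figure D5:**
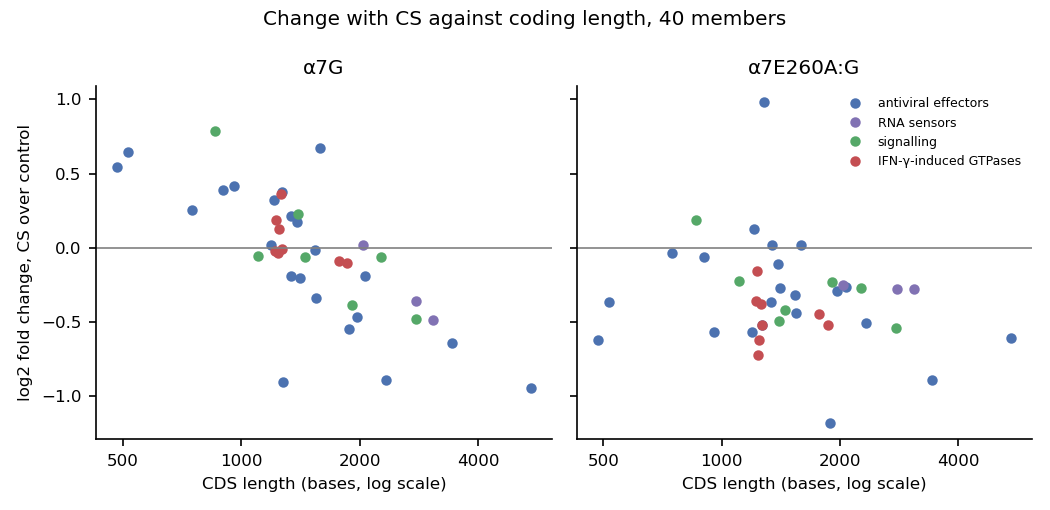
Log2 fold change of CS over control against coding length (log axis) for the 40 members in α7G and α7E260A:G, coloured by role. In α7G the change falls with length (correlation -0.751), and in α7E260A:G the relation is weaker (-0.225).

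Female against male libraries, fitted with group in the model, called no member in edgeR, where 3 of 13637 genes (0.022%) passed, and none in DESeq2. At an unadjusted p under 0.05 there were 9 members (22.5%), against 16.2% of all genes. Of the 40, 26 were higher in females, with a median log2 difference of 0.17, against -0.02 for all genes; with library size scaling 20 were higher and with the length offset 32. Rtp4, a chaperone of receptors that is induced by interferon, was the member with the smallest p and did not overlap between the sexes (0.829% of all genes were higher in females in this way), with 35.7 RPM ± 1.44 (SD, n = 4 libraries) in females and 25.2 ± 3.95 in males and a log2 difference of 0.69 (SE 0.18; adjusted p 0.308, edgeR). Isg15 (log2 0.85, SE 0.24), Ifi44 (0.99, SE 0.28) and Usp18 (0.54, SE 0.15) followed, each with an adjusted p of 0.308 (edgeR). With the length offset the log2 difference was 0.42 for Rtp4 and 0.40 for Isg15.

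The pathway list held 49 genes that make, sense, relay or dampen interferon or are further targets of it (15 of the 49). Of these, 47 were in the counts and 42 passed the filter. The ligands Ifnb1, Ifna2, Ifna4, Il28a and Il28b had 0 counts in every library, which allows up to 0.274 to 0.374 RPM. Ifng was detected, with 4.21 and 4.80 RPM in α7G control, 3.96 and 4.17 in α7G CS, 2.68 and 10.3 in α7E260A:G control, and 2.49 and 3.54 in α7E260A:G CS, so that 1 library, the female α7E260A:G control, stood above the rest. In the edgeR fit of all 8 libraries none of the 42 was called in any of the comparisons, and DESeq2 called 1, Cxcl9. Of the other fits, that with the length offset called Cxcl9 for genotype, beside 3.56% of all genes. That with sex as a block and the offset called Cxcl9 and Tlr7 for genotype, beside 711 of 13637 genes. The fit of the 4 α7G libraries called Ifitm3 and Ptpn11 for CS, beside 7.19% of all genes. With CS over both genotypes 32 of 42 (76.2%) were lower, with a median log2 change of -0.30, against 49.2% and 0.01 for all genes, and 7 (16.7%) had an unadjusted p under 0.05, against 7.64% of all genes.

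Cxcl9, a chemokine induced by interferon gamma that draws T cells, had 3.85 and 5.34 RPM in α7G control, 2.33 and 2.14 in α7G CS, 13.2 and 20.6 in α7E260A:G control, and 3.12 and 2.66 in α7E260A:G CS. Its controls exceeded its CS libraries in both genotypes and its α7E260A:G controls exceeded those of α7G. The log2 change with CS in α7E260A:G was -2.67 (SE 0.46; unadjusted p 0.000462, adjusted p 0.9, edgeR) and in α7G -0.91 (SE 0.46; adjusted p 0.639). The genotype difference of Cxcl9 was 1.22 (SE 0.32; adjusted p 0.189, and 0.0354 with the length offset). DESeq2 called Cxcl9 for CS in α7E260A:G (adjusted p 0.000642), for CS over both genotypes (0.00246) and for genotype (0.0404). Without the male α7E260A:G control library edgeR called it for CS in α7E260A:G too (adjusted p 0.00718), as well as for CS over both genotypes and for genotype. The receptor genes did not pass: Ifngr1 ran from 293 to 437 RPM, Ifngr2 from 52.4 to 74.8, Ifnar1 from 45.7 to 98.9 and Ifnar2 from 62.3 to 93.8.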

How the data were processed

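RNA was sequenced from CD45-depleted distal lung cells of 8 samples. The authors aligned reads to mouse build mm9 (NCBIM37) with STAR and counted them over coding sequence of GENCODE M1 with HTSeq (versions not given in the sources used here). The deposited counts are raw counts per gene, 1 table a library. RPM and RPKM were computed from them, with 0.5 added before log2. The main test was edgeR 4.0.16 (R 4.3.3), quasi-likelihood with TMM scaling, on a model of 4 groups over all 8 libraries, for the 13637 genes whose mean count reached 10, with Benjamini-Hochberg adjustment and a threshold of 0.05. On simulated counts for the genotype comparison over 13637 genes, 200 genes were given a log2 change of 2, of which 96.5% were recovered, with 14 false calls. The simulation gave every gene the same dispersion (0.106) and held no effect of sex or coding length. It therefore checks the code and does not give the recovery of smaller changes in these libraries. Alternatives were DESeq2 1.42.0, library size scaling, mean count filters of 200 and of none, a lowess offset for coding length (span 0.667), sex as a block, and leaving out each library. Replicates of a group differed by more than sampling noise.

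Members and lists were chosen with earlier results of these data known. Values in every library were given for 16 members fixed by name and for the 4 with the smallest p in each of the genotype and CS comparisons; the pathway genes Ifng and Cxcl9 and the members described by single libraries were chosen after their values were seen. The floors cover counting error only, while the standard errors of the fits include the spread between libraries. The values of 1 pathway gene are not reported here.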

Additional observations from a re-analysis of the deposited data

Results flagged for a closer look

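Each member was checked for a library far from the others among the 4 libraries of a genotype or an exposure, by Dixon's gap over range. Of 160 such groups 9 held a library past the 95% critical value, which is about the share of 1 in 20 that chance alone gives.

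The male α7E260A:G CS library stood out most often. Rsad2 was at 23.8 RPM there, against 2.43 to 6.03 RPM in the other α7E260A:G libraries and 1.86 to 4.85 RPM in the other CS libraries. Among the CS libraries it was also the highest for Samhd1 (538 RPM, others 442 to 446), Parp14 (124 RPM, others 59.6 to 66.3) and Stat2 (59.6 RPM, others 31.8 to 36.1). Over all genes its log2 level relative to the mean library rose by 0.187 per doubling of coding length. In the other CS libraries this slope was -0.208 to -0.146. Samhd1, Parp14 and Stat2 have 2067, 5451 and 2782 coding bases, and Rsad2 has 1278. The part of coding length in these values was not tested. The male α7E260A:G control library was high for Mx1 (11.7 RPM, other α7E260A:G libraries 2.74 to 3.87) and Irgm2 (27.0 RPM, others 17.7 to 18.8). The male α7G control library was high for Trim25 (94.3 RPM, other α7G libraries 51.0 to 57.3), and the female α7G CS library was low for Dhx58 (25.2 RPM, others 29.7 to 29.9).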

How the results depend on the processing

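For genotype 13 genes were called, and 6 with the mean count filter of 200, 69 without a filter, 485 with the length offset, 43 with sex as a replicate block, 711 with the block and the length offset and 516 in DESeq2. Leaving out 1 library gave 1 to 646, the highest without the female and 418 without the male α7E260A:G control library; 0 to 1 members were called, and 1 (Ifi44) with the block and the length offset. For CS over both genotypes the count was 0, and 1 without a filter, 3 with the offset, 4 with the block and the offset, 68 in DESeq2 and 0 to 100 with 1 library left out (100 without the male α7E260A:G control). For CS in α7G it was 0, and 25 in DESeq2 and 980 in the fit of the 4 libraries of that genotype, with 2 members. For CS in α7E260A:G it was 1, and 0 with library size scaling, with the filter of 200, with the block and in the fit of its 4 libraries, 3 without a filter, 2 with the offset with or without the block, 35 in DESeq2 and 0 to 142 with 1 library left out (142 without the male α7E260A:G control). For the interaction it was 0, and 1 with the offset, 11 in DESeq2 and 0 to 97 with 1 library left out (97 without the same library). For sex it was 3, and 5 with the offset and 52 in DESeq2.

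Library size scaling moved the α7G medians with CS to -0.192 (type I list) and -0.158 (GTPases), and the interaction medians to -0.074 and -0.251. With 1 library left out, the CS median over both genotypes ran from -0.291 to -0.105 for the type I list and from -0.325 to -0.137 for the GTPases; the GTPase median ran from -0.131 to 0.075 in α7G, from -0.694 to -0.219 in α7E260A:G and from -0.63 to -0.31 for the interaction. In such fits a lone library is assumed to vary like the other groups. The other values of the lists moved by less than the spread between libraries, and no member changed direction among those followed singly through the alternatives, the 4 with the smallest p in each comparison (1 for the interaction) and those without overlap between 4 and 4 libraries. Over all 40, the length offset changed the sign of 5 for CS over both genotypes, 5 in α7G, 2 in α7E260A:G, 3 for the interaction, 3 for genotype and 8 for sex. Why these counts and medians moved was not tested.

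Male and female libraries carry the replicate numbers 1 and 2. Their deviations from the group means had correlations of -0.002 to 0.55 over 6 pairs of groups. The highest, 0.55, was between α7E260A:G control and α7E260A:G CS. The main fit did not take the libraries as paired, so that its standard errors for CS in α7E260A:G include the difference between the sexes. The fit with sex as a replicate block called no member. The precision is set by 2 libraries a group, and by mean counts under 100 for members such as Mx1, Mx2 and Ifit3.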
